A study of Canis lupus familiaris with 33 samples.

Results

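Formalin-fixed paraffin-embedded (FFPE) brain tissue of Boxers was compared between 4 dogs with oligodendroglioma and 4 dogs whose brain was labelled as healthy (control). These 8 libraries, 1 per dog, were chosen by their labels for preservation (FFPE) and breed (Boxer) and are 8 of the 33 samples of the series, which come from 25 dogs. The series sequenced total RNA of canine oligodendroglioma and control brain, as FFPE blocks or frozen tissue, to ask whether archived blocks can serve to find tumour antigens. All tissue was taken at necropsy, with a delay after death that varied, per the labels' protocols, and that is not given for single dogs. The 4 Boxer tumours, of dogs 43917, 50416, 60461 and 60792, were all labelled grade III. The stated ages of the tumour dogs were 10.3, 7 and 12 for dogs 43917, 50416 and 60792, with no unit. The FFPE label of dog 60461 gave none, though the label of its frozen tumour states one. The 4 controls were dogs 36808, 50276, 50315 and 61478, and an age was stated for 1 of them, dog 50315 (2). Age and tumour therefore cannot be told apart here. The labels do not give the brain region, the sex or the age of the blocks. Beside the Boxers, values are given for 6 tumours and 5 controls of French Bulldogs, also FFPE, and for 5 tumours and 6 controls kept frozen (fresh-frozen). Of the French Bulldog tumours, 2 were labelled grade II, and the grade II tumour of dog 60679 is also in the fresh-frozen set. That set mixes breeds. Its tumours came from French Bulldogs, a Border Terrier and a dog labelled Pomerian. Its controls came from French Bulldogs, a Hovawart, a mongrel, a Berner sennenhund and a Bolonka Swetna. Ages are stated for most dogs of both sets and were not used. The fresh-frozen set leaves out the tumour of dog 60461, so no dog of either set is among the 8 Boxers. The French Bulldog and fresh-frozen sets share dogs with each other and are not independent of each other.

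Oligodendroglioma is a glial tumour whose cells resemble the oligodendrocyte lineage, the cells that make myelin. Short-nosed breeds, Boxers and French Bulldogs among them, are known for their predisposition to glioma. Dog chromosome 13 carries MYC, PDGFRA and KIT, genes that drive growth of glial cells, and gain of this chromosome is known in canine glioma. Formalin breaks and modifies RNA, so FFPE libraries hold short fragments. The deposited table gives Ensembl identifiers and no gene names, so genes are described by position, length and exon structure, and the tissue labels could not be checked against cell type markers. In a bulk sample, fewer cells of a type and less RNA per cell cannot be told apart.

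Total counts of fragments assigned to genes ran from 1752162 to 6714065 in the tumours and from 406406 to 4098580 in the controls, a mean of 3724000 ± 2114000 (SD, n = 4) against 2817000 ± 1668000 (SD, n = 4). The lowest total belonged to control dog 50315, in which 13077 genes had a count, against 18052 to 20393 in the other 7 libraries. The share of counts on mitochondrial genes was highest in tumour 50416 (31.6%) and control 50315 (27.1%) and lay between 13.9% and 18.7% in the others. Across 5 library measures (total counts, genes detected, and the shares of counts on mitochondrial genes, on short single-exon features and on the 10 most abundant genes), no difference between tumours and controls passed the test. The exact two-sided permutation tests gave p from 0.5429 to 0.9143, all 0.9143 after adjustment over the 5, in a design whose smallest possible p is 0.0286.

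Some of these libraries bear on the results. Tumour 50416 and control 50315 correlated least with each other (Pearson r = 0.43 over the log2 expression levels of the tested genes) and had the lowest median correlation with the other 7 libraries, 0.72 and 0.67, against 0.78 to 0.85 for the rest. The library labelled control of dog 61478 correlated with tumour 60461 at 0.91, as high as with control 50276 (0.91). Its median correlation with the other 7 libraries, 0.85, was the highest. It lay nearest the tumours on all 4 lists of tumour genes chosen in other dogs, described below. Tumour 60461 lay nearest the controls on the same 4 lists. It correlated with controls 61478, 50276 and 36808 at 0.91, 0.84 and 0.83, and with tumours 43917, 60792 and 50416 at 0.83, 0.81 and 0.78. Results that rest on 50416, 50315 or 61478 are given with and without them. Fits without tumour 60461 enter only the ranges with 1 library left out.

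The comparison of tumour with control asked which genes differ in Boxers alone. Counts were scaled and tested with edgeR's quasi-likelihood test over 13025 genes that passed its filter on low counts, of 30951 in the table, and a gene was called at a Benjamini-Hochberg adjusted p under 0.05. No gene was called in either direction (0%), and the lowest adjusted p was 0.118. At an unadjusted p under 0.05 stood 1860 genes (14.3%), 791 higher in tumour (6.07%) and 1069 lower (8.21%). Scaled by library totals alone, 794 were higher and 686 lower, so the balance of directions depended on the scaling. All 4 tumours lay above all 4 controls in 523 genes (4.02%) and below them in 713 (5.47%). The log2 fold change, tumour over control, was above 0 in 7100 genes (54.5%) and its median over all tested genes was 0.09. The median standard error of a gene's log2 fold change was 0.54 in Boxers, 0.41 in French Bulldogs and 0.34 in fresh-frozen tissue. The biological coefficient of variation in Boxers, edgeR's estimate of the spread between dogs, was 0.538.

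The other tools did make calls. DESeq2 called 119 genes higher (0.914%) and 305 lower (2.34%), and limma voom with quality weights, which gives less weight to libraries that scatter more, called 220 higher (1.69%) and 520 lower (3.99%), both at an adjusted p under 0.05. Both tools called the same 98 genes higher, which is 82.4% of the DESeq2 list and 44.5% of the voom list, and the same 267 lower, 87.5% and 51.3% of each list. Of the 98, all 4 tumours lay above all 4 controls in 84, against 4.02% of all tested genes. Of the 267, all 4 tumours lay below in 242, against 5.47%. The 98 had a median log2 fold change of 1.94 in Boxers, 1.84 in French Bulldogs and 1.86 in fresh-frozen tissue, and edgeR called 57 and 86 of them higher in those sets, where it called 3.33% and 12.9% of all genes higher. The 267 had medians of -2.10, -1.71 and -1.68, with 57 and 98 called lower, where 1.94% and 8.67% of all genes were. These genes were chosen on the Boxer libraries, so their Boxer medians and the separation of their groups largely follow from the choice and are a description.

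Without control 61478, edgeR called 1 gene, lower in tumour (adjusted p 0.0408, log2 fold change -4.77 ± 0.61 SE), and with it none. This gene, picked out after its values were seen, lies on chromosome 7 at 16009271 to 16015597 (CanFam3.1, minus strand) and has 5 exons and 2809 bp of exonic sequence. Its counts were 13, 3, 29 and 13 in tumours 43917, 50416, 60461 and 60792, against 262, 255, 50 and 117 in controls 36808, 50276, 50315 and 61478. Every control had more counts of it than any tumour, even control 50315, the shallowest library.

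With no gene past the adjusted threshold, the genes named here are the 2 with the largest and the 2 with the smallest log2 fold change among those with an unadjusted p under 0.05, an average log2 CPM of at least 2 and groups that did not overlap. CPM is the count of a gene per 1000000 counts of the library, with the total taken over the tested genes and multiplied by the TMM scaling factor that edgeR estimates, unless said otherwise. By that rule 327 genes were higher and 576 lower, with smallest adjusted p of 0.182 and 0.118. All 4 missed the adjusted threshold of edgeR. Each passed the filter on low counts only through the group where it was higher, and the rule asked for groups apart. Their separation and large fold changes therefore largely follow from the choice and are a description.

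ENSCAFG00000037037 lies on chromosome 13 at 26385091 to 26681046 (minus strand), with 32 exon entries and 5808 bp of exonic sequence, and overlaps 1 gene on the other strand. Tumours 43917, 50416, 60461 and 60792 had 12, 179, 146 and 23 counts, or 6.40, 65.3, 16.96 and 7.40 CPM. Controls 36808, 50276 and 50315 had 1, 0 and 0 counts and control 61478 had 11, which is 2.49 CPM. Every tumour was above every control, as the rule required, and tumour 50416 was the highest by far. The log2 fold change was 4.63 ± 1.08 (SE; edgeR adjusted p 0.189), and 7.12 without control 61478, a fitted value that depends on how near-zero controls are treated. The same gene had a log2 fold change of 2.91 in French Bulldogs (adjusted p 0.132) and of 4.16 in fresh-frozen tissue, where edgeR called it (adjusted p 0.00643). French Bulldog tumours had a median of 9.82 CPM (0.742 to 33.4) and their controls 0.349 CPM (0 to 9.59), so there the groups overlapped. Per total of all genes, with no TMM factor, the frozen tumour of dog 60461 had 15.5 CPM and its FFPE block 21.7.

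ENSCAFG00000032287 lies on chromosome 2 at 59040539 to 59045625 (minus strand), with 3 exons and 1253 bp. Its counts were 34, 10, 21 and 27 in tumours 43917, 50416, 60461 and 60792, or 18.1, 3.65, 2.44 and 8.69 CPM, against 8, 1, 0 and 0 in controls 36808, 50276, 50315 and 61478. Control 36808, at 2.08 CPM, lay just under tumour 60461. The log2 fold change was 3.33 ± 1.04 (SE; edgeR adjusted p 0.236). In the other sets this gene was too low to be tested, with at most 4.92 CPM in French Bulldog tumours and 5.90 in their controls, and per total of all genes the frozen tumour of dog 60461 had 0.327 CPM and its FFPE block 3.13.

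ENSCAFG00000015751 lies on chromosome 6 at 11835961 to 11870109 (minus strand), with 44 exon entries and 3701 bp, and was lower in the tumours. Tumours 43917, 50416, 60461 and 60792 had 3, 0, 20 and 0 counts (1.6, 0, 2.32 and 0 CPM), and controls 36808, 50276, 50315 and 61478 had 70, 120, 24 and 68 (18.2, 40.7, 77.5 and 15.4 CPM). The lowest control stood well above the highest tumour. The log2 fold change was -4.96 ± 0.92 (SE; edgeR adjusted p 0.182), beside -4.40 in French Bulldogs, where it was called (adjusted p 0.0423), and -1.29 in fresh-frozen tissue (adjusted p 0.177). Frozen controls had 0.498 to 1.35 CPM and the FFPE controls of French Bulldogs 0 to 83.5 CPM, each scaled within its own set.

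ENSCAFG00000006786 lies on chromosome 15 at 39443518 to 39486595 (plus strand), with 11 exons and 2305 bp. Its counts were 1, 1, 3 and 0 in tumours 43917, 50416, 60461 and 60792, all under 1 CPM (0 to 0.533), against 50, 21, 5 and 31 in controls 36808, 50276, 50315 and 61478 (13.02, 7.12, 16.2 and 7.02 CPM). The log2 fold change was -4.93 ± 0.79 (SE; edgeR adjusted p 0.118). In French Bulldogs it was -1.37 (adjusted p 0.372) and in fresh-frozen tissue 0.30 (adjusted p 0.845). The difference between the Boxer and French Bulldog effects was -3.61, with an unadjusted p of 0.0219 and an adjusted p of 1 in edgeR's interaction test. A difference between breeds was therefore not established for this gene.

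**Figure D1:**
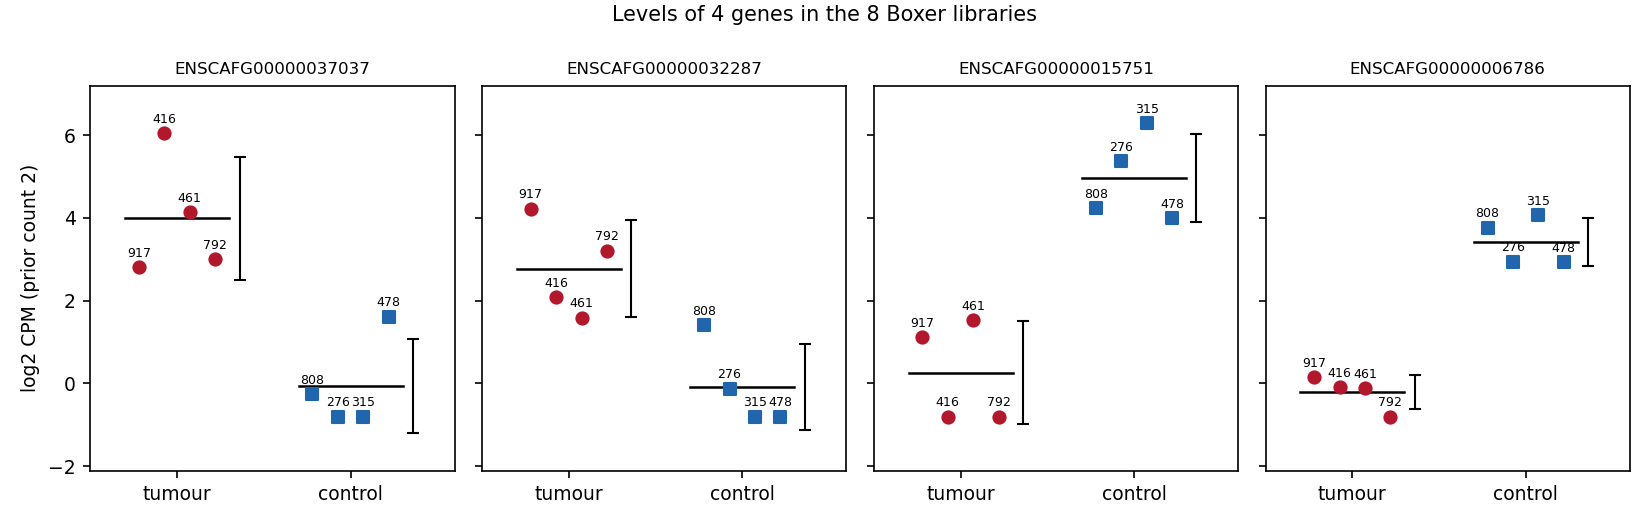
Levels of the 4 named genes in the 8 Boxer libraries, as log2 CPM with a prior count of 2. Red circles are tumours and blue squares controls, labelled by the last digits of the dog number, with the mean as a line and the SD (n = 4) as a bar beside it. In each panel all tumours lie on 1 side of all controls, which the rule that chose these genes required. Control 61478 is the highest control for the first gene.

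The series calls on these blocks to find genes that tumours express, so the next question was whether genes called in other dogs behaved the same way in Boxers. French Bulldog tumours had 722 genes called (5.28%) against their own controls, 456 higher (3.33%) and 266 lower (1.94%). Of the 452 higher ones that could be tested in Boxers, 445 (98.5%) had a log2 fold change above 0, where 54.5% of all tested genes did, and 215 (47.6%) had an unadjusted p under 0.05 in the same direction, where 6.07% of all tested genes did. Of the 258 lower ones, 253 (98.1%) were below 0 and 154 (59.7%) had an unadjusted p under 0.05, where 8.21% of all tested genes did. None in either list had an unadjusted p under 0.05 in the opposite direction. The groups did not overlap for 102 (22.6%) and 95 (36.8%) of them, against 4.02% and 5.47% of all tested genes.

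For these lists, effects in Boxers were smaller than in the dogs that chose them. The higher genes had a median log2 fold change of 1.13 in Boxers and 1.85 in French Bulldogs, and the lower genes -1.46 and -2.20. French Bulldog values were used to choose the lists, so the pairs of medians are a description and not a test. Chosen the other way, genes with an unadjusted edgeR p under 0.05 in Boxers had larger medians in Boxers. These were 1.43 in Boxers and 1.12 in French Bulldogs for the higher genes, and -1.60 and -1.34 for the lower ones. The larger values thus lay in whichever set chose the genes. By library, the genes higher in French Bulldog tumours were shifted by 0.48, 0.66, 0.40 and 0.78 in tumours 43917, 50416, 60461 and 60792 and by -0.92, -0.98 and -0.87 in controls 36808, 50276 and 50315. A shift is the median over the listed genes of the log2 CPM minus the midpoint of tumour and control means, relative to the same median over all tested genes in that library. Control 61478 stood at 0.12, below every tumour but about 1 log2 unit above the other controls. For the genes lower in French Bulldog tumours the shifts were -0.72, -1.81, -0.26 and -0.49 in the tumours and 0.45, 0.97, 1.46 and 0.32 in the controls in the same order of dogs. Tumour 50416 and control 50315 were at the ends of this range and control 61478 again nearest the tumours. Without control 61478, 305 of 453 higher genes (67.3%) had an unadjusted p under 0.05 and their median, relative to all genes, was 1.46, against 1.04 with it. For the lower genes these counts were 155 of 259 (59.8%). Without tumour 50416 and control 50315, the counts were 206 of 453 (45.5%) higher and 122 of 261 (46.7%) lower. Over all tested genes the shares were 8.36% higher and 8.11% lower without control 61478. They were 5.97% and 8.60% without tumour 50416 and control 50315.

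Fresh-frozen tumours gave 1960 genes called higher (12.9%) and 1321 called lower (8.67%). In Boxers, 1621 of the 1723 testable higher genes (94.1%) were above 0 and 473 (27.5%) had an unadjusted p under 0.05 in that direction, and 3 in the other. Of 1154 lower genes, 1069 (92.6%) were below 0 and 372 (32.2%) had an unadjusted p under 0.05, with none in the other direction. Over all tested genes, 54.5% were above 0 and 45.5% below. An unadjusted p under 0.05 was found for 6.07% as higher and 8.21% as lower. The median log2 fold changes were 0.88 and -0.83 in Boxers, beside 1.39 and -1.29 in the frozen tissue that chose them. The shifts of the higher genes were 0.38, 0.61, 0.18 and 0.55 in tumours 43917, 50416, 60461 and 60792 and -0.72, -0.69, -0.37 and 0.04 in controls 36808, 50276, 50315 and 61478. Tumours and controls did not overlap, and tumour 60461 and control 61478 were the closest. Tumour 60461 stood at -0.0029 on the lower genes, where the other tumours lay between -0.97 and -0.48 and the controls between 0.18 and 0.62.

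**Figure D2:**
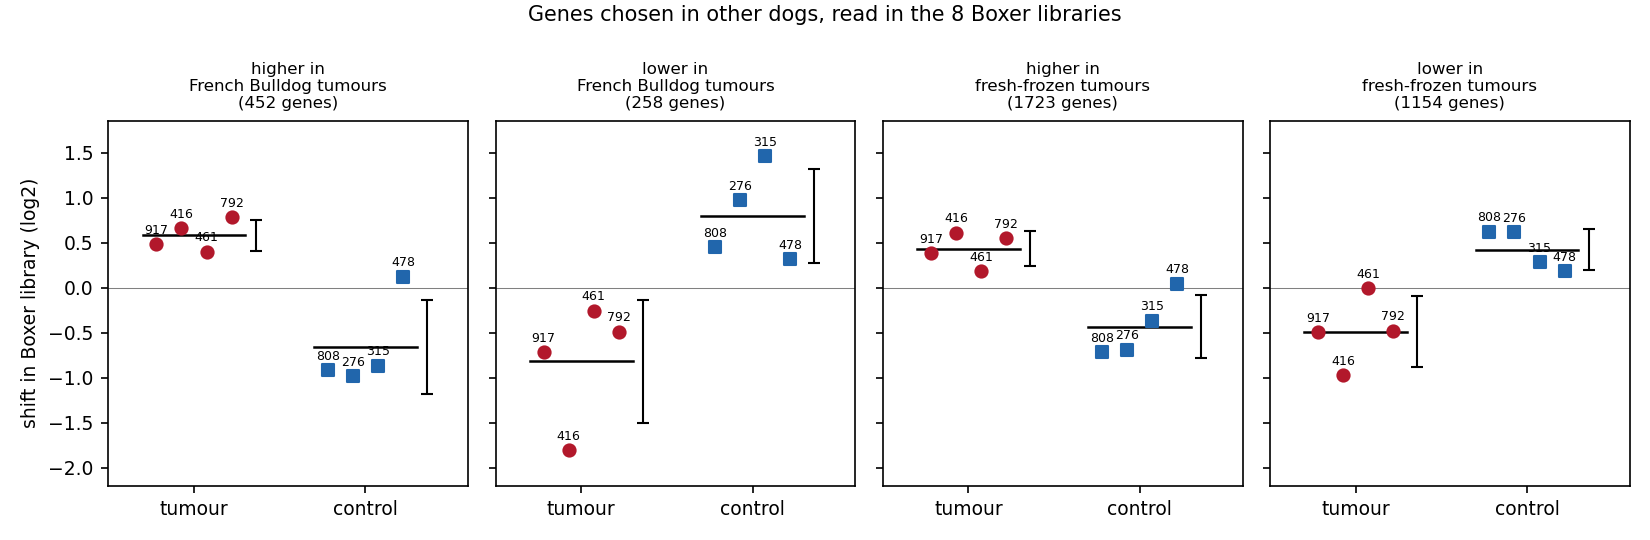
Shift (log2, relative to all tested genes of the library) of genes called in French Bulldog or fresh-frozen tumours, read in the 8 Boxer libraries; circles are tumours, squares controls, labelled by the last digits of the dog number, with the mean as a line and the SD (n = 4) as a bar. Tumours and controls do not overlap in any panel. Control 61478 lies nearest the tumours in each, at 0.12 in the first, and tumour 60461 lies nearest the controls in each.

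Over all 12822 genes tested in both breeds, the log2 fold changes of Boxers and French Bulldogs correlated at r = 0.74 (Pearson; Spearman rho 0.74), and over 12689 genes those of Boxers and fresh-frozen tissue at r = 0.69 (rho 0.70). These are correlations across genes, which are not independent replicates.

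**Figure D3:**
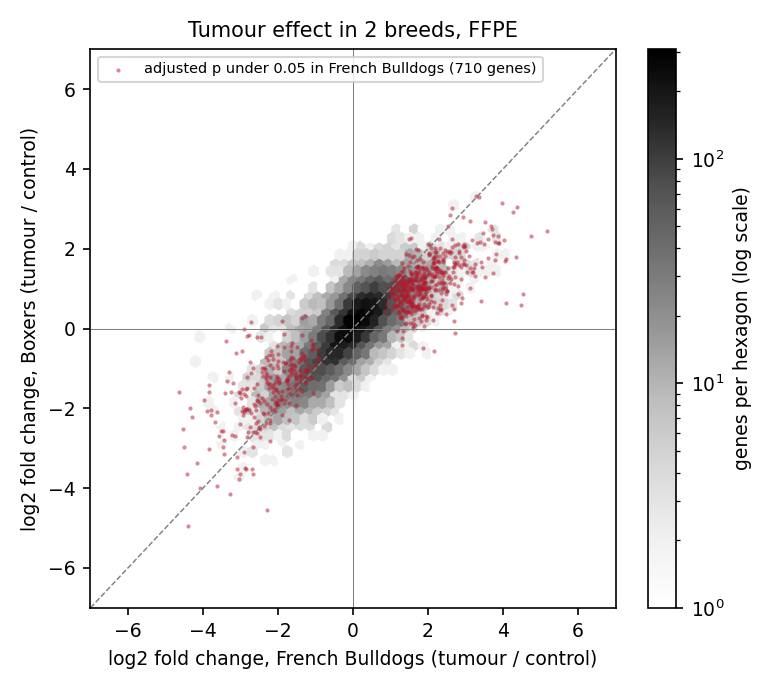
Log2 fold change, tumour over control, in French Bulldogs (x axis) and in Boxers (y axis), both FFPE, with the number of genes per hexagon in grey on a log scale and the genes called in French Bulldogs as red points. The genes follow the dashed line of equal effects in sign (r = 0.74 over 12822 genes). The red points mostly lie nearer 0 on the Boxer axis, but they were chosen on their French Bulldog values.

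The difference between the breeds was tested with an interaction of breed and tissue in edgeR over 14760 genes in 19 libraries. No gene was called (0%), the lowest adjusted p was 1, and 289 genes (1.96%) had an unadjusted p under 0.05, 171 (1.16%) with the larger value in Boxers and 118 (0.799%) with the smaller. DESeq2 and voom also called 0 genes, with 440 and 493 at an unadjusted p under 0.05. Of the 452 and 258 genes called in French Bulldogs and tested in Boxers, 48 and 16 had an unadjusted interaction p under 0.05 and 0 an adjusted one. Over all genes in the fit the unadjusted share was 1.96%. The French Bulldog libraries that chose these genes also entered the interaction fit, so their counts are a description and not a test. The median standard error of the interaction was 0.71 on the log2 scale, so a gene's effect could differ between breeds by well over 1 log2 unit and not be called. The data thus do not show that the breeds act alike, nor that they differ.

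Tumour antigens are most useful where normal brain lacks them, so genes low in control tissue were taken from French Bulldogs and read in Boxers. Of the genes called higher in French Bulldog tumours, 16 had a mean under 1 log2 CPM in French Bulldog controls. In Boxers all 16 had a higher mean in tumours, where 54.5% of all tested genes had a log2 fold change above 0. Of the 16, 13 could be tested, and 6 had an unadjusted p under 0.05 as higher, against 6.07% of all tested genes. All tumours lay above all controls for 4 (background 4.02%). Their median difference was 1.86 log2 CPM, 2.51 without control 61478, and 0.72 when every library was thinned to the depth of control 50315. The median level of the 16 was 3.27, 2.30, 2.94 and 4.15 log2 CPM in tumours 43917, 50416, 60461 and 60792. It was 1.10, 0.10 and -0.80 in controls 36808, 50276 and 50315 and 2.64 in control 61478. Control 61478 thus lay above tumour 50416, and the groups overlapped. In that control 14 of the 16 were above 1 log2 CPM, as in tumour 60792, against 10, 6 and 5 in the other controls. In Boxer controls, 7 of the 16 had a mean under 1 log2 CPM. Summed over the 16, control 50315 had 16 counts, against 64 to 682 in the other controls. Only 5 of the 16 had any count in control 50315, so its median of -0.80 is the level given to a count of 0. That floor enters the median difference.

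Chromosomes 13 and 35 had the highest median log2 fold changes of the 39 chromosomes in Boxers. Chromosome 13 came first in edgeR, but chromosome 35 stood above it, relative to all tested genes, with no filter on low counts (0.44 against 0.40), with all FFPE libraries in the fit (0.44 against 0.41), without tumour 60792 (0.43 against 0.38) and without control 61478 (0.63 against 0.59). On chromosome 13, the 258 tested genes, of 679 in the table, had a median of 0.62, where all tested genes had 0.09 and the 39 chromosome medians ran from -0.17 to 0.62. Of these genes, 187 (72.5%) were above 0, 55 (21.3%) had an unadjusted p under 0.05 as higher and 16 (6.20%) as lower, against 6.07% and 8.21% of all tested genes. All tumours lay above all controls for 33 (12.8%, against 4.02%). None was called by edgeR. In French Bulldogs 22 of 266 tested genes were called higher and 3 lower with a median of 0.66, where 3.33% and 1.94% of all genes tested there were called. In fresh-frozen tissue 70 of 288 were called higher and 13 lower with a median of 0.45, where 12.9% and 8.67% of all genes were. Genes of 1 chromosome were described because earlier results of these data had drawn attention to it.

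The 2 stretches of chromosome 13 differed between dogs. Below 38 Mb, the stretch that includes the MYC region, 169 tested genes had a median log2 fold change of 0.62 and the shifts were 0.13, 0.31, 0.18 and 0.33 in tumours 43917, 50416, 60461 and 60792. The controls 36808, 50276 and 50315 lay together at -0.28, -0.32 and -0.31, and control 61478 at 0.03, so the groups did not overlap. Beyond 38 Mb, the stretch that includes PDGFRA and KIT, 89 tested genes had a median of 0.60. There tumour 50416 stood at 0.70 and tumour 60792 at 0.22, while tumours 43917 and 60461 were at -0.0049 and 0.04, and controls 36808, 50276, 50315 and 61478 were at -0.28, -0.30, -0.46 and 0.12. Control 61478 was above 2 of the 4 tumours beyond 38 Mb. Tumour 50416 also departed from 0 on other chromosomes taken whole, at 0.69 on chromosome 11, 0.675 on chromosome 14 and 0.62 on chromosome 33. It lay at -0.45 on chromosome 20 and -0.34 on chromosome 9, so a shift of this size was not particular to the stretch. Without tumour 50416 and control 50315, the median beyond 38 Mb relative to all tested genes was 0.21 in place of 0.51, and 9 genes of 92 (9.78%) had an unadjusted p under 0.05 as higher and 10 (10.9%) as lower. Below 38 Mb the counts in that setting were 30 of 177 (16.9%) and 12 (6.78%), and without control 61478 they were 50 of 175 (28.6%) and 8 (4.57%). Over all tested genes the shares were 5.97% and 8.60% without tumour 50416 and control 50315, and 8.36% and 8.11% without control 61478.

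In steps of 10 Mb, tumour 50416 reached 0.92 between 40 and 50 Mb of chromosome 13, where the other libraries of both groups lay between -0.30 and 0.17. Tumour 60792 reached 0.82 between 30 and 40 Mb, where the other tumours lay between -0.04 and 0.17 and the controls between -0.33 and -0.05. The highest step thus differed between these tumours. Tumour 50416 was nearly as high elsewhere, at 0.86 between 0 and 10 Mb, 0.79 between 10 and 20 Mb and 0.64 between 20 and 30 Mb. It was at 0.10 between 30 and 40 Mb. Tumour 60792 lay between -0.07 and 0.28 in its other steps. Across 0 to 30 Mb the control range fell to -1.14, with few genes per step (23 to 45). No DNA copy number was measured, so the part of chromosome number in these levels was not tested.

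Chromosome 35 had a median of 0.47 over 133 tested genes of 383. Between 23 and 26 Mb, 38 tested genes of 121 had a median of 1.00, 33 of them (86.8%) above 0, 9 (23.7%) with an unadjusted p under 0.05 as higher, against 6.07% of all tested genes, and none as lower. All tumours lay above all controls for 10 of the 38 (26.3%, against 4.02% of all tested genes). The rest of the chromosome had a median of 0.40 over 95 genes, with 64 (67.4%) above 0, 16 (16.8%) at an unadjusted p under 0.05 as higher and 9 (9.47%) as lower. The higher genes of the chromosome therefore lay both inside and outside this stretch, and the difference between the stretches was not tested. In fresh-frozen tissue 38 of 67 genes between 23 and 26 Mb were called higher, against 12.9% of all genes tested there, and none lower (median 1.30). In French Bulldogs 2 of 39 were called higher, near the 3.33% of all genes tested there (median 1.14). Shifts of the stretch were 0.33 to 0.80 in the tumours and -0.70 to 0.06 in the controls, control 61478 being the highest control. Without control 61478, 15 of 39 genes (38.5%) had an unadjusted p under 0.05 as higher, beside 8.36% of all tested genes in that fit. The median relative to all genes was then 1.23 in place of 0.91. Without tumour 50416 and control 50315, the count was 5 of 41 (12.2%), beside 5.97% of all tested genes, and that median was 0.74.

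This stretch holds the large cluster of replication-dependent histone genes, which have no introns and are transcribed when cells copy their DNA. Without names, 31 single-exon genes were taken between 23977201 and 25061935 whose exonic length equals the usual coding length of histone H4, H2B, H2A or H3, the proteins around which DNA is wound. Replication-dependent histone messages lack a poly(A) tail, so a total RNA library can hold them. Only 7 of the 31 passed the filter on low counts (4 of the length of H4, 1 of H2B, 2 of H2A and 0 of H3). All 7 had a log2 fold change above 0, from 0.08 to 1.87, where 54.5% of all tested genes were above 0. Genes this low can pass the filter through the group where they are higher, so these signs are a description. Since most single genes were too low, their counts were summed. The sums were 154, 252, 791 and 319 counts in tumours 43917, 50416, 60461 and 60792, which are 82.1, 91.9, 91.9 and 103 CPM. In controls 36808, 50276, 50315 and 61478 they were 56, 96, 13 and 300 counts, or 14.6, 32.5, 42.0 and 67.9 CPM. The 4 tumours lay within a narrow range and above all controls, and control 61478 was the nearest to them. The mean difference was 1.43 on the log2 scale of the summed CPM, and between 1.01 and 1.76 when any 1 library was left out.

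In French Bulldogs the same 31 genes summed to 34.9 to 466 CPM in tumours and 26.1 to 69.3 CPM in controls, so 1 tumour there lay among the controls. Fresh-frozen tumours had 305 to 966 CPM and their controls 97.8 to 214 CPM. Each set was scaled on its own, so levels are compared only within a set.

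**Figure D4:**
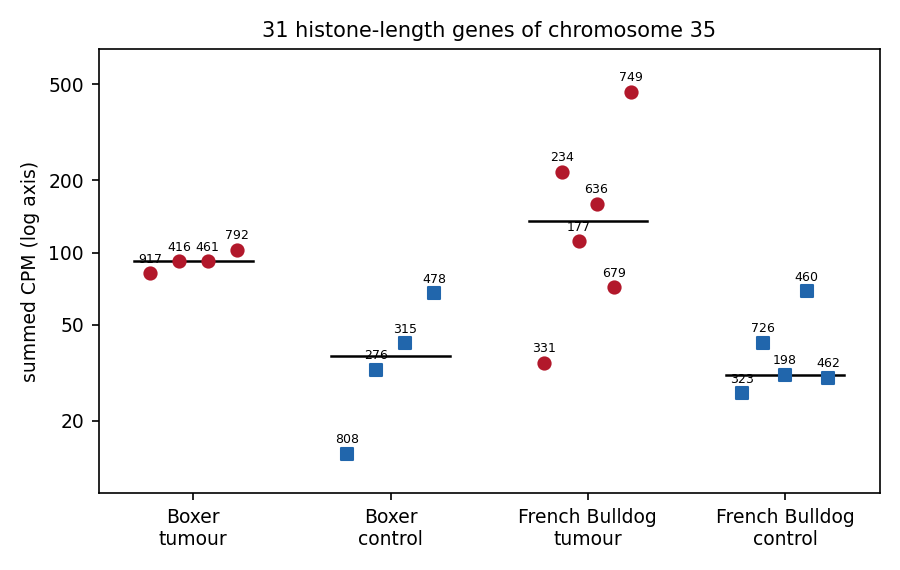
Summed CPM (log axis) of 31 single-exon genes of histone length between 23 and 26 Mb of chromosome 35, in FFPE tumours (circles) and controls (squares) of Boxers and French Bulldogs, labelled by the last digits of the dog number, with the group median as a line. Boxer tumours lie between 82.1 and 103 CPM, above every Boxer control, while the French Bulldog groups overlap.

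Mitochondrial genes split by length. The 15 mitochondrial genes of 200 bp or longer, which encode proteins of the respiratory chain and ribosomal RNAs, had a median log2 fold change of 0.10, near the 0.09 of all tested genes, and none had an unadjusted p under 0.05. The 21 tested features under 200 bp, which are mainly transfer RNA genes, were all below 0, with a median of -1.52, and 17 (81.0%) had an unadjusted p under 0.05, where 8.21% of all tested genes did as lower. All tumours lay below all controls for 6 of the 21 (28.6%, against 5.47% of all tested genes). Summed, these features had 682, 504, 268 and 1210 CPM in tumours 43917, 50416, 60461 and 60792, and 1514, 1921, 4369 and 1138 CPM in controls 36808, 50276, 50315 and 61478. Tumour 60792 lay above control 61478, and control 50315 was more than 2 times above any other library. In French Bulldogs 14 of 21 were called lower (median -2.67), where 1.94% of all genes were, and in fresh-frozen tissue 4 of 22 (median -1.56), where 8.67% of all genes were, and 0 in either were called higher. Without control 61478, 18 of 21 (85.7%) had an unadjusted p under 0.05 as lower, and without tumour 50416 and control 50315 this was 5 of 21 (23.8%), with all 21 still below 0. Of all tested genes, 8.11% were lower at that threshold in the first setting and 8.60% in the second. The median relative to all tested genes went from -1.61 to -0.87 without tumour 50416 and control 50315.

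**Figure D5:**
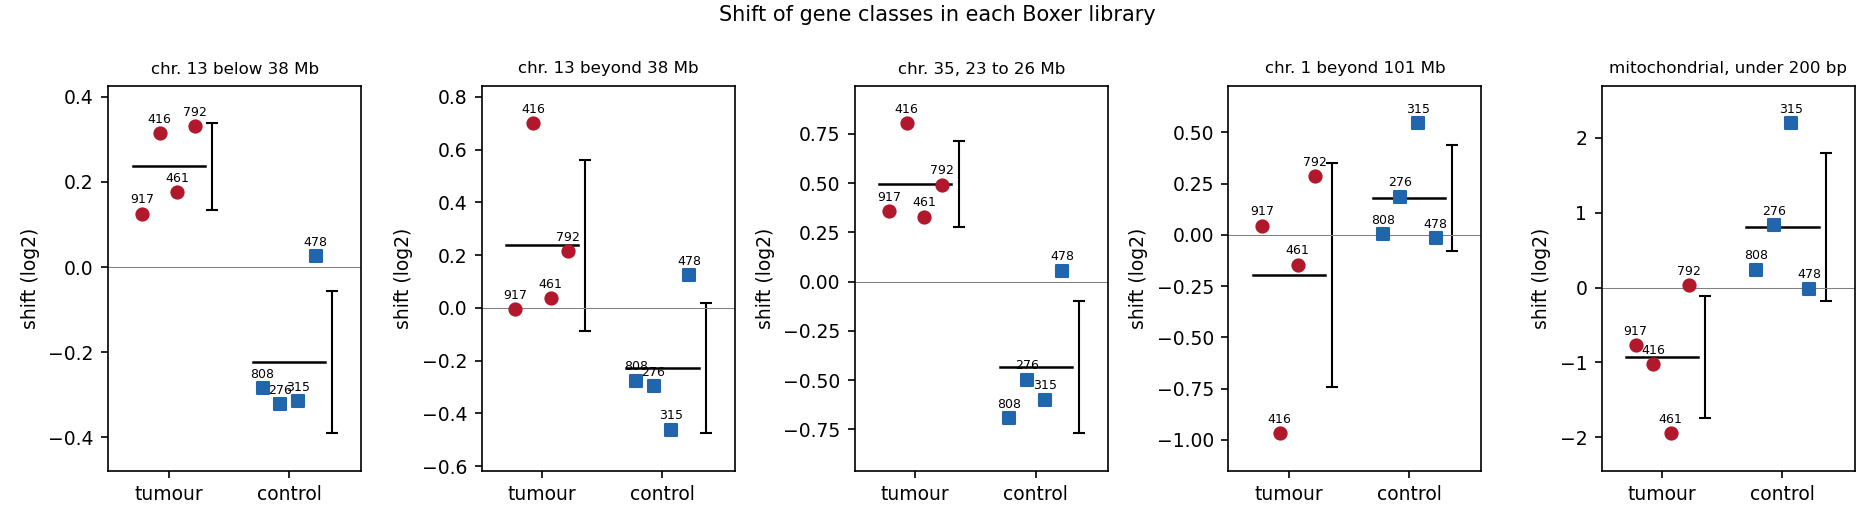
Shift (log2, relative to all tested genes of the library) of 5 gene classes in the 8 Boxer libraries, each panel with its own scale; circles are tumours, squares controls, labelled by the last digits of the dog number, with the mean as a line and the SD (n = 4) as a bar. Tumours lie above controls for chromosome 13 below 38 Mb (0.13 to 0.33 against -0.32 to 0.03) and chromosome 35 between 23 and 26 Mb, and the groups overlap in the other 3 panels.

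Other classes moved little or not uniformly. The 391 tested genes of the distal part of chromosome 1, the counterpart of human 19q, which human oligodendroglioma loses together with 1p, had a median of -0.19, with 4 (1.02%) at an unadjusted p under 0.05 as higher and 33 (8.44%) as lower, against 6.07% and 8.21% of all tested genes, so the share of lower genes was that of the background. Tumour 50416 stood at -0.97 there, while tumours 43917, 60461 and 60792 were at 0.05, -0.15 and 0.28 and the controls lay between -0.02 and 0.54. On the other chromosomes, taken whole, tumour 50416 ranged from -0.45 (chromosome 20) to 0.69 (chromosome 11). Without tumour 50416 and control 50315 the median relative to all genes changed from -0.28 to 0.08, so its direction rested on those libraries. The 375 tested genes of the rest of chromosome 1 had a median of -0.10. At an unadjusted p under 0.05, 38 (10.1%) were lower, against 8.21% of all tested genes. Only 6 of the 375 were higher, a smaller share than the 6.07% of all tested genes. The median relative to all tested genes stayed below 0 under every alternative run, from -0.278 to -0.077. By library the groups overlapped, with shifts from -0.33 to 0.16 in tumours and from -0.23 to 0.23 in controls. The median log2 fold change of this part was -0.005 in French Bulldogs and -0.15 in fresh-frozen tissue.

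Genes between 5 and 9 Mb of chromosome 26, a stretch linked by others to glioma risk in short-nosed dogs, had a median of 0.22 over 62 tested genes, with 4 (6.45%) and 3 (4.84%) at an unadjusted p under 0.05 as higher and lower, near the 6.07% and 8.21% of all tested genes. Their shifts overlapped fully, from -0.36 to 0.50 in tumours and from -0.22 to 0.02 in controls. Genes spanning 500000 bp or more, many of them neuronal in mammals, had a median of -0.21 over 179 tested genes, with 35 (19.6%) at an unadjusted p under 0.05 as lower and 8 (4.47%) as higher, against 8.21% and 6.07% of all tested genes. The shifts of the long genes were -0.37, -0.58, 0.32 and -0.13 in tumours 43917, 50416, 60461 and 60792, and 0.29, 0.37, -0.38 and 0.28 in controls 36808, 50276, 50315 and 61478, so 1 library of each group went against its group. Short single-exon features of up to 300 bp, which include many small structured RNAs, had a median of 0.20 over 424 tested features, beside -0.65 in French Bulldogs and 0.68 in fresh-frozen tissue. Within Boxers their shifts ran from -1.30 to 0.69 in tumours and from -0.95 to 0.64 in controls, and the lowest in each group belonged to tumour 60461 and control 61478.

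Dog 60461 gave both an FFPE block and frozen tissue of its tumour, which allows a check of the block. Over the 13025 genes tested in Boxers, the log2 CPM of the pair correlated at r = 0.87 (rho 0.87), as a description of 1 dog across genes. The frozen library had 24458306 counts on 21429 genes and the FFPE library 6714065 counts on 20015 genes.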

How the data were processed

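RNA counts of 8 FFPE Boxer libraries were analysed, with 11 French Bulldog and 11 fresh-frozen libraries for comparison. The deposited table held unnormalised gene counts that featureCounts 1.6.0 produced, per the file headers (strand option 1, mapping quality of at least 10) on Ensembl release 100 models of CanFam3.1. The exonic length of each gene, in bp, was also taken as deposited, per the file headers. Libraries came from a forward-stranded total RNA kit with molecular identifiers, per the labels' protocols. How amplified copies were handled is not stated there. The submitters' processing notes also list fastp and STAR. Fragments that fit several positions can be lost from near-identical genes, the histone genes among them.

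Counts were filtered (filterByExpr), scaled (TMM) and tested with edgeR 4.0.16 (robust quasi-likelihood) in R 4.3.3, with Benjamini-Hochberg adjustment over all tested genes at 0.05. DESeq2 1.42.0 and limma 3.58.1 (voom) were alternatives, as were other scalings, filters, thinning of every library to 406406 counts, and leaving out each library. Library measures used two-sided exact permutation over 70 splits. Levels in log2 CPM had a prior count of 2. The 8 libraries were separate dogs, and each pair differed by more than counting noise (chi-square per degree of freedom from 24.4 to 108), so each counted as 1 replicate. The fits were tested on simulated data. Named genes were the 2 most extreme in each direction by a rule that first asked for an adjusted p under 0.05 and was met by 0 genes. It then used an unadjusted p under 0.05, an average log2 CPM of at least 2 and groups that did not overlap. Of 30951 identifiers, 0 matched a name in RefSeq's gene table of assembly UU_Cfam_GSD_1.0, so planned marker and pathway lists were not used and no sequence is shown. The classes and lists were chosen with earlier results of these data known.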

Additional observations from a re-analysis of the deposited data

Results flagged for a closer look

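Within a group of 4 libraries, a value was picked out where the highest or lowest library lay far from the rest by Dixon's test. Of 64 groups of values checked, 5 were picked out, and chance picks out about 1 in 20. Control 61478 was the highest control for chromosome 13 below 38 Mb, with a shift of 0.0253 where the next control had -0.2839. It was also the highest control for the genes higher in French Bulldog tumours, at 0.1207 against -0.8659 for the next. Control 50315, the shallowest library, was the highest control for mitochondrial genes of 200 bp or longer, at 1.272 against -0.343. It was the lowest control for genes spanning 500000 bp or more, at -0.3834 against 0.2848. Tumour 60461, the deepest library, was the lowest tumour for single-exon features of up to 300 bp, at -1.298 against 0.4544. The part of depth in these values was not tested.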

How the results depend on the processing

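The count of 0 genes at an adjusted p under 0.05 in edgeR became 424 with DESeq2 (119 higher, 305 lower), 740 with voom (220, 520) and 263 with no filter on low counts (62, 201), and the cause was not tested. It was 0 with the other scalings, filters, gene selections, thinning and a fit of all FFPE libraries, and without dogs 50315 and 50416 together, and 0 to 1 when 1 library was left out. The 1860 genes at an unadjusted p under 0.05 became 3186 with voom, 3044 with no filter and 1090 after thinning, where 6495 genes were tested, and 1027 (without 50276) to 2193 (without 61478) with 1 library left out. Of them 791 were higher and 1069 lower, which became 957 and 1011 with RLE size factors and 794 and 686 with library totals only. For the 4 named genes, the adjusted p over the alternatives that could test them ran from 0.000955 to 0.56, 0.0351 to 0.626, 6.39e-06 to 0.56 and 5.47e-05 to 0.375 in the order given above, lowest in DESeq2 except for the second, in voom. Their direction was the same in each. With a prior count of 0.5 the mean difference in log2 CPM was 4.03 in place of 2.86 for ENSCAFG00000032287 and -4.70 in place of -3.64 for ENSCAFG00000006786.

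Class medians relative to all tested genes kept their sign for chromosomes 13 and 35, the short mitochondrial features and the 4 lists under every alternative run, though the short mitochondrial features went from -1.61 to -0.87 without dogs 50315 and 50416. Chromosome 13 below 38 Mb went from 0.53 to 0.76 after thinning, and from 0.35 (without 60792) to 0.60 (without 61478) with 1 library left out. Beyond 38 Mb it was 0.21 without dogs 50315 and 50416, an alternative chosen after seeing the data. With 1 library left out, chromosome 35 ranged from 0.34 to 0.63, its stretch from 23 to 26 Mb from 0.77 to 1.23 and the genes higher in French Bulldog tumours from 0.90 to 1.46, each highest without 61478. The interaction with breed stayed at 0 calls in each alternative run, with 440 (DESeq2) and 493 (voom) genes at an unadjusted p under 0.05 in place of 289, and 294 to 433 with 1 library left out. Tumour minus control differences of the library measures changed sign. With 1 library left out they ranged from -90020 to 1564000 total counts, -537.2 to 1902 genes detected, -3.07 to 3.72 percentage points on mitochondrial genes, -0.38 to 0.59 on short single-exon features and -1.48 to 5.37 on the 10 most abundant genes, the last being -0.036 with mitochondrial genes left out.

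No paired analysis was possible because each of the 8 Boxer libraries came from another dog. With 406406 counts in control 50315, genes low in that library were barely measured. The number of dogs per group and the missing ages limit every comparison.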
